A study of Mus musculus with 16 samples.

Results

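Reactive astrocyte genes were examined in the cerebral cortex of mice given lipopolysaccharide (LPS, a bacterial cell wall component that sets off inflammation) or phosphate-buffered saline (PBS) in the morning or in the evening. The 31 genes were taken from published lists of pan-reactive (9 genes), neuroinflammation-type (7 genes) and injury-type (10 genes) astrocyte transcripts, with 5 further genes that are widely used as markers of reactive astrocytes. They are 31 of the 55487 genes in the deposited table. Of these, 30 were found under their own symbol, and *Chi3l1* was found under its other symbol, *Chil1*.

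The mice were wild-type C57Bl6 males, 2 months old, and received an i.p. injection of LPS at 2 mg/kg or of PBS on each of 2 consecutive days. Injections were given at zeitgeber time (ZT) 1, shortly after lights-on, or at ZT13, shortly after lights-off, and cortex was harvested on the third day. There were 3 mice in the ZT1 PBS group, 5 in ZT1 LPS, 3 in ZT13 PBS and 5 in ZT13 LPS, and every mouse was wild type. The groups were defined by treatment and time of day (TOD). RNA of whole cortex was sequenced after removal of ribosomal RNA, and levels are given in CPM, the reads assigned to a gene per 1000000 assigned to all genes of that library. Libraries held 20251840 to 29112758 reads on genes, so that 3 reads, taken here as the limit of detection, correspond to 0.103 to 0.148 CPM, a limit that covers counting error only.

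Astrocytes answer infection, injury and cytokines with a change of state known as reactivity, in which they enlarge, make more intermediate filament protein and secrete acute phase proteins, protease inhibitors and cytokines. In systemic LPS models much of this answer is driven by cytokines, which act on astrocytes through STAT3, NF-kappa B and interferon signalling. The pan-reactive genes are known to rise in many settings, whereas the other 2 lists were drawn up from mice given LPS and from mice with stroke, respectively.

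The 14 homeostatic astrocyte markers, among them the glutamate transporter gene *Slc1a2* and the water channel gene *Aqp4*, summed to between 5890 and 6719 CPM over the 16 mice, and the ranges of all 4 groups overlapped. The 7 neuronal markers summed to between 5021 and 5177 CPM in ZT1 PBS and 4586 and 4908 in ZT1 LPS mice, and to between 5112 and 5370 and 4519 and 4757 CPM at ZT13, with each LPS mouse below each PBS mouse of its time. Of these markers 1 of 7 was called lower at ZT1 and 5 of 7 at ZT13, against 5.15% and 9.4% of all genes. Of the 6 oligodendrocyte markers 2 were called lower at ZT1 and 4 at ZT13. A further 1 was called higher at each time, against 11.1% and 19.2% of all genes. The part of these shifts in the members' CPM was not tested. Markers of choroid plexus summed to between 11.9 and 912 CPM in ZT1 PBS, 11.7 and 850.0 in ZT1 LPS, 14.2 and 964 in ZT13 PBS, and 28.1 and 582 in ZT13 LPS mice, and these ranges all overlapped. The treatment recorded in 1 field of the labels contradicts the sample titles for 12 of the 16 mice, and the titles were used. Because whole tissue was sequenced, more cells of a type and more RNA per cell cannot be told apart.

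Of the 31 genes, 28 reached 1 CPM in at least 3 mice and were tested. *Steap4*, *Iigp1*, *Tgm1*, *Ptx3*, *Emp1* and *Lgals3* reached that level through LPS-treated mice alone, and they had to be high there to be tested at all. *Ugt1a1*, *Slc10a6* and *B3gnt5* stayed below it.

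In control cortex the members spanned a wide range of abundance. Scaled to the length of the merged exons, the mean level in ZT1 PBS mice was 27.4 CPM per kilobase for *Gfap*, 6.59 for *S100a10*, 6.28 for *Synm* and 6.24 for *Vim*, while *Ptx3*, *Tgm1*, *Steap4*, *Iigp1* and *Emp1* lay between 0.0595 and 0.0905. In ZT13 LPS mice *Gfap* stood at 240.2 CPM per kilobase, *Serpina3n* at 155 and *Vim* at 39.6. *Serpina3n* thus held less than *Vim*, *Synm* and *S100a10* per kilobase in PBS mice and more than all of them in LPS mice, as the plot of length-scaled levels shows.

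**Figure D1:**
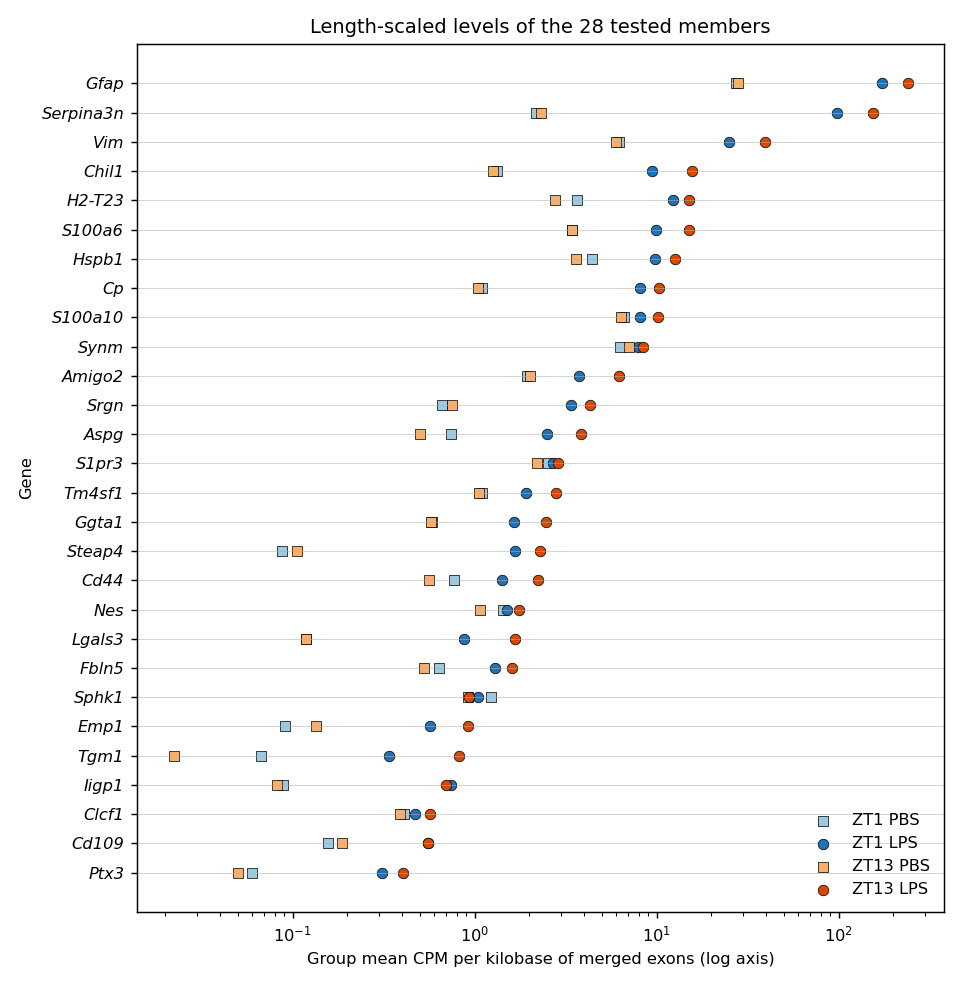
Mean level of each of the 28 tested genes in the 4 groups, in CPM per kilobase of merged exons on a log axis, with squares for PBS and circles for LPS. Gfap was the most abundant in every group, and Serpina3n went from 2.17 to 97.6 CPM per kilobase at ZT1 and from 2.32 to 155 at ZT13.

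RefSeq promoter windows on GRCm38.p6 were at hand for 27 of the 31 genes. The 250 bases before each annotated start were searched on both strands for 6 fixed motifs that factors of these pathways bind. The 27 genes held 36 windows, and a gene is named below if any of its windows matched. The percentages are of single windows, so a gene with several windows had more chances to match. The STAT palindrome TTCNNNGAA was found in *Emp1*, *Sphk1*, *Steap4* and *Tgm1*, and in 7.02% of 32851 promoters in all. The interferon response core, GAAA and GAAA separated by 2 bases, was found in *H2-T23*, *Srgn*, *Tgm1* and *Tm4sf1* (2.98% of all promoters), and the kappa B type motif, GGGA and TTCC separated by 2 bases, in *Tm4sf1* (1.21%). The C/EBP type motif TTGCNNAA was found in *Cp*, *Ggta1*, *H2-T23*, *Ptx3* and *Steap4* (9.56%), the AP-1 type motif TGANTCA in *Cp*, *Emp1* and *Sphk1* (6.75%), and the E-box CACGTG, which clock factors bind, in *Sphk1* and *Synm* (6.02%). *Gfap*, *Vim* and *Serpina3n* held none of these letters in the window. The following windows belong to members that were higher in LPS-treated mice, and *Serpina3n*, the member with the largest change, is shown as one without a match. *Emp1* and *Tgm1* each have another annotated start whose window, not shown, held no match. Each runs 5′ to 3′ along the gene and ends at the base before the start, and capitals mark the matches. In *Emp1* the match to TGANTCA nearest the start overlaps the match to TTCNNNGAA. A match is a description of letters and shows no binding.
Steap4 (chr5:7960222-7960471, plus strand): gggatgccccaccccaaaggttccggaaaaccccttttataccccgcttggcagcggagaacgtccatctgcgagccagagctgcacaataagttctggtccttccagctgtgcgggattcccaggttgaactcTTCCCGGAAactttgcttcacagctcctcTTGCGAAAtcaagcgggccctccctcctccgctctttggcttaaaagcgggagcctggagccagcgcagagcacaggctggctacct
Tgm1 (chr14:55713493-55713742, minus strand): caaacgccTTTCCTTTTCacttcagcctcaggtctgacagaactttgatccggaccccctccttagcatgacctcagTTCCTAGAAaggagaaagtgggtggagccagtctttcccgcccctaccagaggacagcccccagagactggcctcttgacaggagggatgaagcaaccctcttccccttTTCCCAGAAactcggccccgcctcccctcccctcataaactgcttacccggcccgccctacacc
Emp1 (chr6:135362681-135362930, plus strand): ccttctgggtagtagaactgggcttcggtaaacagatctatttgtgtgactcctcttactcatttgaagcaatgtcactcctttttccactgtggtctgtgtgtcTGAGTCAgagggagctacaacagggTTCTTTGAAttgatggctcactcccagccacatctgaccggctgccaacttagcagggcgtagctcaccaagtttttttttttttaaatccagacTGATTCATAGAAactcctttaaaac
H2-T23 (chr17:36032702-36032951, minus strand): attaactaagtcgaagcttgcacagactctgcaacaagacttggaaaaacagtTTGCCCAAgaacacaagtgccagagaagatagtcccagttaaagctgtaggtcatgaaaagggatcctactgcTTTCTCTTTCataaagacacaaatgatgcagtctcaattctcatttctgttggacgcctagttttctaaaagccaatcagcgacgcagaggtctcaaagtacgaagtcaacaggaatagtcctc
Tm4sf1 (chr3:57301989-57302238, minus strand): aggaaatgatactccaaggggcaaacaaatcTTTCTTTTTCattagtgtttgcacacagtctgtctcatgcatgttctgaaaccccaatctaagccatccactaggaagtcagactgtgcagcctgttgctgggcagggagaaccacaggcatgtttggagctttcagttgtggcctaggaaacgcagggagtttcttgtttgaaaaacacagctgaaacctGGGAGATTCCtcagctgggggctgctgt
Serpina3n (chr12:104406458-104406707, plus strand): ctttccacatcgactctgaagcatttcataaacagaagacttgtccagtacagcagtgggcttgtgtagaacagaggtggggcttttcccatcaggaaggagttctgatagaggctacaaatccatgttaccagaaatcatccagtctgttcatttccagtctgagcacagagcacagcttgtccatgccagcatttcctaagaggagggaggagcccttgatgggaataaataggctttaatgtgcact

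LPS and PBS mice were compared separately at each TOD, to ask which members answered LPS. At ZT1, 23 of the 28 tested members were called at an adjusted p under 0.05 and all 23 were higher in LPS mice, where 16.2% of the 18859 tested genes were called, 11.1% higher and 5.15% lower. At ZT13, 26 members were called, again all higher, against 28.6% of all genes called, 19.2% higher and 9.4% lower. The median log2 fold change over the 28 members was 1.35 at ZT1 and 1.95 at ZT13, against 0.04 and 0.05 over all tested genes. The 23 members called at ZT1 were all called at ZT13, where *S1pr3*, *S100a10* and *Nes* were called as well, and *Clcf1* and *Sphk1* were called at neither TOD. All 5 LPS mice lay above all 3 PBS mice for 22 members at ZT1 and for 25 at ZT13, against 15.9% and 20.9% of all genes. LPS mice all lay below PBS mice for 0 of the tested members, against 8.41% and 10.3% of all genes. The 6 members tested through LPS mice alone had to be high there and are among those called at both times. They enter the counts and medians of members above, which they raise. Counts and medians without these 6 are given by class further below. The split of all called genes into higher and lower depended on scaling. It was 2089 to 972 at ZT1 and 3629 to 1772 at ZT13 on CPM, and 1668 to 1417 and 2870 to 2759 after median-of-ratios scaling, which left the counts of members at 23 and 26. With all 38565 genes of any CPM tested, 12 of 31 members were called at ZT1, and *Hspb1*, *Cd44*, *Aspg*, *Ggta1*, *Fbln5*, *Amigo2*, *Tgm1*, *Tm4sf1*, *Synm*, *Chi3l1* and *Lgals3* missed the threshold there (adjusted p from 0.053 to 0.20).

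Signs of other cells moved with LPS as well. Neutrophil and monocyte markers, 9 genes led by *S100a8* and *S100a9* with 6 of 7 tested called higher at ZT1 and 7 of 7 at ZT13, summed to between 0.938 and 1.37 CPM in ZT1 PBS mice and between 11.1 and 46.1 in ZT1 LPS mice, and rose from between 0.496 and 0.955 to between 30.5 and 80.2 at ZT13. *Ly6g*, the defining neutrophil surface marker, was at 0 in all PBS mice and at most 0.152 CPM in LPS mice. The 8 microglial markers summed to between 203 and 223 CPM in ZT1 PBS and between 220.5 and 361 in ZT1 LPS mice, and the sums at ZT13 were 199 to 215 and 261 to 313. Among them 6 were called higher and 1 lower at each time. The 8 endothelial markers summed to between 174 and 179 CPM in ZT1 PBS, 205 and 280.1 in ZT1 LPS, 123 and 143 in ZT13 PBS, and 267 and 294 in ZT13 LPS mice. Among these, 5 were called higher and 1 lower at ZT1, and 7 higher and 0 lower at ZT13. Over all genes 11.1% were called higher and 5.15% lower at ZT1, and 19.2% and 9.4% at ZT13. Several members, including *Vim*, *Cd44*, *Lgals3*, *Srgn*, *S100a6*, *Emp1*, *Tm4sf1* and *H2-T23*, are known to be made by vascular or immune cells too. The part of these cells in the members' differences was not tested.

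**Figure D2:**
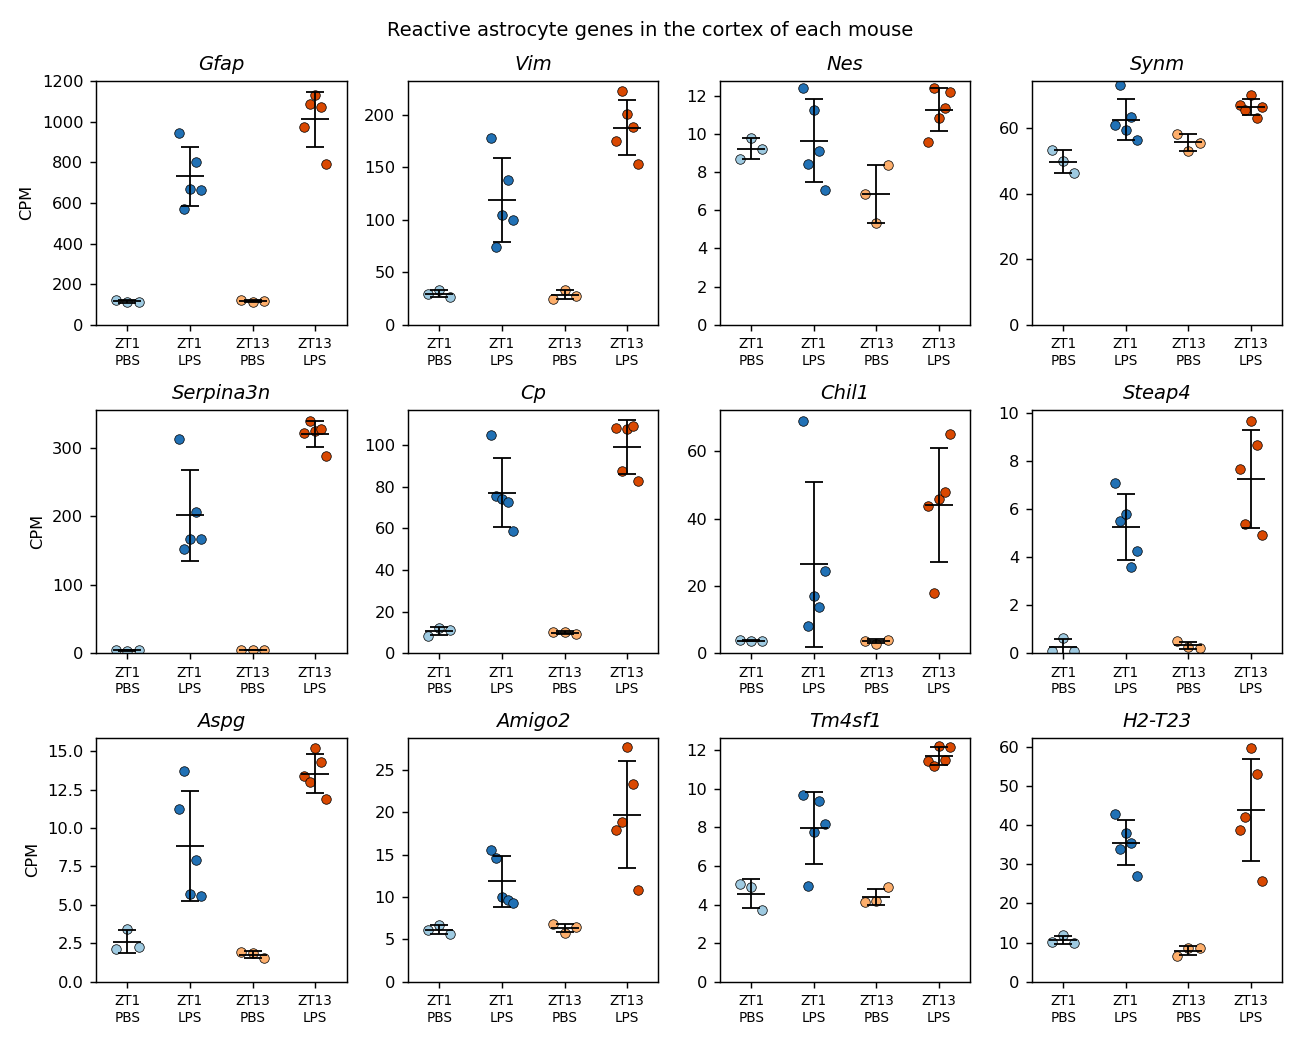
CPM of 12 members in every mouse, each panel with its own linear axis from 0. Points are mice and the bars are the mean and SD of a group. LPS mice lay above the PBS mice of the same TOD in most panels, and the groups overlapped for Nes at ZT1 and for Tm4sf1 at ZT1.

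Among the intermediate filament genes, 3 of 4 were called higher in LPS mice at ZT1 and all 4 at ZT13, against 11.1% and 19.2% of all genes. *Gfap* (chr11:102887336-102900912, minus strand, GRCm38) encodes the filament protein that defines reactive astrocytes. It was at 123, 113 and 111 CPM in the ZT1 PBS mice and at 945, 572, 671, 802 and 665 CPM in the ZT1 LPS mice. It was at 120.3, 113 and 119.6 CPM in the ZT13 PBS mice and at 977, 1087, 1134, 1076 and 791 CPM in the ZT13 LPS mice. Every LPS mouse stood well above every PBS mouse, and the PBS mice of both times were alike in level. The log2 fold change was 2.64 (SE 0.13, adjusted p = 3.2e-07) at ZT1 and 3.09 (SE 0.09, adjusted p = 3.1e-11) at ZT13.

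*Vim* (chr2:13573927-13582826, plus strand), which encodes the filament vimentin of immature and reactive astrocytes and of many vascular cells, gave 28.9, 33.2 and 26.7 CPM in ZT1 PBS and 178, 73.7, 105, 138 and 99.7 CPM in ZT1 LPS mice. At ZT13 the values were 24.9, 33.3 and 27.2 CPM with PBS and 175, 222, 201, 188 and 153 CPM with LPS. The LPS mice were again all above the PBS mice, with a wider spread at ZT1. The log2 fold changes were 1.93 (SE 0.22) and 2.70 (SE 0.11). *Synm*, which encodes the linker filament synemin, rose little, from 49.8 ± 3.53 (SD, n = 3) to 62.7 ± 6.35 CPM (n = 5) at ZT1 and from 55.7 ± 2.68 to 66.5 ± 2.56 CPM at ZT13. Its log2 fold changes of 0.32 (SE 0.08, adjusted p = 0.016) and 0.25 (SE 0.05, adjusted p = 0.00088) were the smallest of any called member at ZT1 and at ZT13. Without ZT1 PBS replicate 2 or 3 the ZT1 call was lost (adjusted p = 0.057 and 0.092), and likewise without the intensity trend (0.056). *Synm* shares exon sequence with *Ttc23* on the other strand, and whether the counting used strand is not given in the sources used here.

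*Nes* encodes nestin, a filament of neural progenitors, endothelium and strongly reactive astrocytes. It was at 8.68, 9.78 and 9.22 CPM in ZT1 PBS and 12.4, 8.42, 11.2, 9.10 and 7.07 CPM in ZT1 LPS mice, and these groups overlapped. At ZT13 it was at 6.87, 5.32 and 8.38 CPM with PBS and 9.57, 12.4, 10.8, 11.4 and 12.2 CPM with LPS, and here the groups separated. The log2 fold change was 0.04 (SE 0.15, adjusted p = 0.91) at ZT1 and 0.69 (SE 0.13, adjusted p = 0.00088) at ZT13. The ZT1 estimate was -0.01 after median-of-ratios scaling. Between the PBS groups *Nes* differed by -0.42 on the log2 scale (ZT13 minus ZT1, adjusted p = 0.26), and this difference enters the ZT13 response.

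Of the 7 genes for secreted and matrix proteins, 6 were called higher in LPS mice at both times, against 11.1% and 19.2% of all genes. Among the 6, *Ptx3* was tested through LPS mice alone and had to be high there. *Serpina3n* (chr12:104406729-104414329, plus strand), a secreted serine protease inhibitor of the acute phase, showed the largest change of any member. It lay at 4.54, 3.9996 and 4.93 CPM in ZT1 PBS mice and at 314, 152, 167, 207 and 168 CPM in ZT1 LPS mice. In the evening groups it lay at 5.01, 5.04 and 4.30 CPM with PBS and at 323, 339, 325, 328 and 288 CPM with LPS. The evening LPS mice were close together and replicate 1 of the morning LPS mice reached their level, whereas the other 4 morning mice lay below all of them. The change was 39.2-fold at ZT1 (log2 5.29, SE 0.19) and 60.8-fold at ZT13 (log2 5.93, SE 0.06), on the scale of CPM + 0.5. *Serpina3n* belongs to a cluster of near-identical genes on chromosome 12, among which reads can be split. The other listed genes of the cluster held so little that the summed cluster reached 154.5 to 316 CPM in ZT1 LPS and 290.5 to 341 CPM in ZT13 LPS mice.

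*Cp* (chr3:19957054-20009145, plus strand), the gene of the copper-carrying ferroxidase ceruloplasmin, was at 8.48, 11.999 and 11.2 CPM in ZT1 PBS and at 105, 75.7, 74.1, 72.9 and 58.9 CPM in ZT1 LPS mice. At ZT13 it was at 10.4, 10.3 and 9.14 CPM with PBS and at 108, 87.6, 108, 109 and 82.9 CPM with LPS. No LPS mouse came near a PBS mouse, and the log2 fold changes were 2.80 (SE 0.16) and 3.25 (SE 0.09). *Cp* shares exon sequence with *Hps3* on the other strand.

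*Chi3l1*, a chitinase-like glycoprotein secreted by reactive astrocytes, was uneven among LPS mice. It gave 3.90, 3.51 and 3.75 CPM in ZT1 PBS mice and 69.0, 8.10, 16.9, 13.9 and 24.3 CPM in ZT1 LPS mice. With evening injection it gave 3.76, 2.82 and 3.99 CPM in PBS and 43.7, 17.9, 45.7, 48.0 and 65.2 CPM in LPS mice. The highest single value was in a morning mouse, and the lowest LPS values were 8.10 CPM in the morning and 17.9 CPM in the evening. The log2 fold changes were 2.29 (SE 0.49, adjusted p = 0.0090) and 3.37 (SE 0.29, adjusted p = 1.0e-06). In the same order of mice the choroid plexus markers summed to 850, 11.7, 407, 17.7 and 553 CPM in ZT1 LPS mice. In ZT13 LPS mice they summed to 228, 28.1, 151, 188 and 582 CPM. The sums in PBS mice were 11.9, 912 and 19.0 CPM at ZT1 and 964, 14.2 and 546 CPM at ZT13. The part of choroid plexus in the *Chi3l1* values was not tested.

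The proteoglycan gene *Srgn* rose from 1.46 ± 0.429 to 7.39 ± 1.74 CPM at ZT1 and from 1.65 ± 0.324 to 9.43 ± 1.28 CPM at ZT13. *Fbln5*, which encodes an elastic fibre protein, rose from 4.42 ± 0.247 to 8.90 ± 2.19 and from 3.67 ± 0.0812 to 11.0 ± 2.12 CPM. *Ptx3*, a soluble pattern recognition molecule, was at 0.160 ± 0.0818 CPM in ZT1 PBS and 0.836 ± 0.290 CPM in ZT1 LPS mice, and at 0.134 ± 0.116 and 1.08 ± 0.298 CPM at ZT13. These 3 genes were called at both times, with log2 fold changes of 0.90 to 2.01 at ZT1 and 1.31 to 2.21 at ZT13, and the ZT1 call of *Ptx3* was lost under quantile normalization (adjusted p = 0.15). *Clcf1*, a cytokine of the IL-6 family, was not called. It stood at 1.56 ± 0.200 and 1.79 ± 0.537 CPM at ZT1 (log2 0.13, SE 0.19, adjusted p = 0.71) and at 1.48 ± 0.555 and 2.16 ± 0.204 CPM at ZT13 (log2 0.46, SE 0.18, adjusted p = 0.072). Without ZT13 PBS replicate 3 the evening estimate was 0.64 and was called (adjusted p = 0.026). *Clcf1* shares exon sequence with an unnamed gene on the same strand.

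Of the 7 genes for receptors and surface proteins, 6 were called higher in LPS mice at ZT1 and all 7 at ZT13. The shares of all genes called higher were 11.1% and 19.2%. Among the 7, *Emp1* and *Lgals3* were tested through LPS mice alone and had to be high there. *Cd44*, the hyaluronan receptor, was at 4.54, 5.97 and 5.18 CPM in ZT1 PBS and 15.4, 6.62, 8.76, 10.47 and 6.93 CPM in ZT1 LPS mice. At ZT13 it was at 3.68, 3.24 and 4.48 CPM with PBS and 14.5, 13.97, 17.5, 20.05 and 9.22 CPM with LPS. The groups separated at both times, and at ZT1 replicate 1 stood apart from the other LPS mice. The log2 fold change was 0.77 (SE 0.23, adjusted p = 0.039) at ZT1 and 1.82 (SE 0.19, adjusted p = 6.4e-06) at ZT13. The morning call was lost without any one of ZT1 PBS replicates 1, 2 and 3 and ZT1 LPS replicates 3 and 4, with adjusted p from 0.066 to 0.15, and also under quantile normalization (0.068) and without the intensity trend (0.093).

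*Tm4sf1*, a tetraspanin-like membrane protein also known from endothelium, was at 5.08, 4.89 and 3.70 CPM in ZT1 PBS and 9.65, 4.97, 7.76, 9.38 and 8.16 CPM in ZT1 LPS mice. It was at 4.14, 4.16 and 4.88 CPM in ZT13 PBS and 11.4, 11.2, 12.2, 11.5 and 12.1 CPM in ZT13 LPS mice. ZT1 LPS replicate 2 fell within the range of the PBS mice, so the morning groups overlapped, while the evening LPS mice were tightly grouped above all others. The log2 fold changes were 0.72 (SE 0.19, adjusted p = 0.023) and 1.32 (SE 0.09, adjusted p = 6.3e-08). The morning call was lost without any one of ZT1 PBS replicates 1, 2 and 3 and ZT1 LPS replicate 4 (adjusted p from 0.0504 to 0.12) and without the intensity trend (0.058).

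*Emp1*, an epithelial membrane protein gene, went from 0.345, 0.593 and 0.674 CPM to 5.36, 2.78, 2.99, 2.66 and 2.99 CPM at ZT1. It went from 0.493, 0.971 and 0.941 CPM to 4.25, 6.02, 5.07, 6.33 and 5.46 CPM at ZT13. *Lgals3*, the gene of the carbohydrate-binding galectin-3, went from 0.221 ± 0.203 to 1.62 ± 0.922 CPM and from 0.219 ± 0.125 to 3.11 ± 0.870 CPM. For both genes all LPS mice lay above all PBS mice, with log2 fold changes of 1.87 and 1.504 at ZT1 and 2.20 and 2.30 at ZT13.

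*Amigo2*, an adhesion molecule often used to mark neuroinflammation-type astrocytes, was at 6.11, 6.67 and 5.64 CPM in ZT1 PBS and 15.6, 14.5, 10.03, 9.70 and 9.33 CPM in ZT1 LPS mice. The evening values were 6.76, 5.78 and 6.50 CPM with PBS and 17.9, 18.9, 27.7, 23.3 and 10.8 CPM with LPS. All LPS mice were above the PBS mice, and evening replicate 5 fell among the morning LPS mice. *Cd109*, a co-receptor that restrains TGF-beta signalling, rose to nearly the same level at both times, from 1.08 ± 0.275 to 3.82 ± 1.19 CPM and from 1.30 ± 0.247 to 3.85 ± 1.01 CPM. *S1pr3*, a sphingosine 1-phosphate receptor, overlapped between LPS and PBS mice at both times. Its level was 11.4 ± 1.87 and 11.97 ± 1.80 CPM at ZT1 (log2 0.07, SE 0.13) and 9.82 ± 1.47 and 12.8 ± 1.16 CPM at ZT13 (log2 0.37, SE 0.10, adjusted p = 0.016). The evening call was lost under quantile normalization (adjusted p = 0.16), with all genes of any CPM tested (0.091) and without ZT13 PBS replicate 3 (0.096).

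The enzymes and the transporter were mixed. *Steap4* (chr5:7960457-7982213, plus strand) encodes a metalloreductase that handles iron and copper. It was at 0.0986, 0.642 and 0.0842 CPM in ZT1 PBS mice and at 7.09, 5.51, 5.81, 3.57 and 4.26 CPM in ZT1 LPS mice. At ZT13 it was at 0.493, 0.278 and 0.224 CPM with PBS and at 7.66, 5.37, 9.64, 8.64 and 4.93 CPM with LPS. It was near the detection limit in 2 morning PBS mice and clearly present in every LPS mouse, with log2 fold changes of 2.93 (SE 0.25) and 3.19 (SE 0.21).

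*Aspg*, which encodes an asparaginase, was at 2.12, 3.46 and 2.23 CPM in ZT1 PBS and 11.2, 13.7, 5.70, 7.95 and 5.57 CPM in ZT1 LPS mice. It was at 1.94, 1.85 and 1.52 CPM in ZT13 PBS and 13.4, 12.98, 15.2, 14.3 and 11.9 CPM in ZT13 LPS mice. The evening LPS mice were close together, whereas the morning ones ranged from 5.57 to 13.7 CPM. The log2 fold changes were 1.53 (SE 0.27) and 2.63 (SE 0.11).

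*Tgm1*, a transglutaminase that cross-links proteins, was at 0.0493, 0.247 and 0.337 CPM in ZT1 PBS and 2.33, 0.671, 1.03, 0.630 and 0.680 CPM in ZT1 LPS mice. It was at 0.0759, 0 and 0.134 CPM in ZT13 PBS and 1.68, 2.62, 4.11, 3.33 and 1.21 CPM in ZT13 LPS mice. The evening PBS mice held no more than 3 reads each, so the evening rise is at least 20.1-fold, taking 3 reads in each of those mice as the bound. The log2 fold change at ZT1 was 1.07 (SE 0.30, adjusted p = 0.034). That morning call was lost without any one of ZT1 PBS replicates 1, 2 and 3 and ZT1 LPS replicate 3, with adjusted p from 0.066 to 0.14, under quantile normalization (0.16) and without the intensity trend (0.064). *Ggta1*, a galactosyltransferase, rose from 2.75 ± 0.578 to 7.77 ± 2.69 CPM and from 2.73 ± 0.468 to 11.7 ± 2.52 CPM.

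*Sphk1*, the kinase that makes sphingosine 1-phosphate, gave no call. It was at 5.87 ± 0.791 CPM in ZT1 PBS, 4.96 ± 0.478 in ZT1 LPS, 4.38 ± 0.415 in ZT13 PBS and 4.44 ± 0.425 in ZT13 LPS mice. Its log2 fold change was -0.22 (95% confidence interval -0.47 to 0.04) at ZT1, the 1 negative estimate among the tested members there, and 0.01 (-0.23 to 0.26) at ZT13. Under quantile normalization the ZT1 estimate was -0.38 and was called (adjusted p = 0.046), and the ZT13 estimate took a negative sign under both other scalings.

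The steroid sulfate transporter gene *Slc10a6* was not tested for its low level, yet its groups did not overlap. It was at 0, 0 and 0.0421 CPM in ZT1 PBS and 0.326, 0.716, 0.343, 0.280 and 0.0906 CPM in ZT1 LPS mice. It was at 0, 0.0463 and 0.0448 CPM in ZT13 PBS and 0.797, 0.902, 1.68, 0.644 and 0.269 CPM in ZT13 LPS mice. All PBS mice held at most 3 reads, which makes the LPS means at least 2.496-fold higher at ZT1 and at least 6.65-fold higher at ZT13. *B3gnt5*, a glycosyltransferase of lactosylceramide chains, was the 1 member for which all LPS mice lay below all PBS mice, at ZT13, with 0.683, 0.648 and 0.896 CPM in ZT13 PBS and 0.399, 0.430, 0.461, 0.568 and 0.358 CPM in ZT13 LPS mice. These evening groups did not overlap, and with all genes of any CPM tested the log2 fold change was -0.40 (SE 0.10, adjusted p = 0.045). At ZT1 its groups overlapped (0.594 ± 0.305 and 0.540 ± 0.172 CPM).

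*Ugt1a1*, a glucuronosyltransferase, was at or near the detection limit throughout, with 0.239 CPM as its highest value, and gave no fold change. Its exons are partly shared with other *Ugt1a* genes of the locus on chromosome 1, so reads from these exons cannot be assigned to 1 gene with certainty. The summed locus was at 2.19 to 2.71 CPM in ZT1 PBS and 8.21 to 11.7 CPM in ZT1 LPS mice, and at 2.34 to 2.91 and 11.5 to 14.2 CPM at ZT13. Most of that was counted to *Ugt1a6a*, at 5.76 to 7.35 CPM in ZT1 LPS and 6.69 to 8.91 CPM in ZT13 LPS mice. The choice to sum the locus was made after its values were seen.

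Of the chaperone and S100 genes, *Hspb1*, a small heat shock protein, rose from 4.54 ± 0.606 to 10.1 ± 3.01 CPM at ZT1 and from 3.73 ± 0.559 to 12.9 ± 1.93 CPM at ZT13. *S100a6*, a calcium-binding protein, rose from 4.67 ± 0.886 to 13.5 ± 4.87 CPM and from 4.70 ± 0.336 to 20.6 ± 3.74 CPM. *S100a10*, a partner of annexin A2, moved less, from 7.99 ± 0.714 to 9.79 ± 1.27 CPM at ZT1 (log2 0.27, SE 0.11, adjusted p = 0.13) and from 7.73 ± 0.805 to 12.4 ± 1.89 CPM at ZT13 (log2 0.64, SE 0.11, adjusted p = 0.00060). Without ZT1 LPS replicate 2 the morning difference in *S100a10* was called (log2 0.34, adjusted p = 0.030).

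Both interferon-inducible members rose. *H2-T23*, which encodes the non-classical MHC class I molecule Qa-1, was at 10.1, 11.8 and 9.83 CPM in ZT1 PBS and 42.8, 33.9, 37.9, 35.4 and 27.1 CPM in ZT1 LPS mice. It was at 6.69, 8.61 and 8.56 CPM in ZT13 PBS and 38.7, 42.1, 59.5, 52.9 and 25.8 CPM in ZT13 LPS mice. LPS mice were above PBS mice at both times, and the lowest of all 10 was evening replicate 5. The log2 fold changes were 1.69 (SE 0.12) and 2.34 (SE 0.20). *Iigp1*, an interferon-inducible GTPase, was at 0.514 ± 0.0261 and 4.31 ± 1.03 CPM at ZT1 and at 0.477 ± 0.332 and 4.05 ± 1.66 CPM at ZT13, with log2 fold changes of 2.22 and 2.17. Of the near relatives of *H2-T23*, *H2-T22* lay at a mean of 11.2 and 22.1 CPM in ZT1 PBS and LPS mice, and *H2-T24* at 13.1 and 13.96 CPM.

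**Figure D3:**
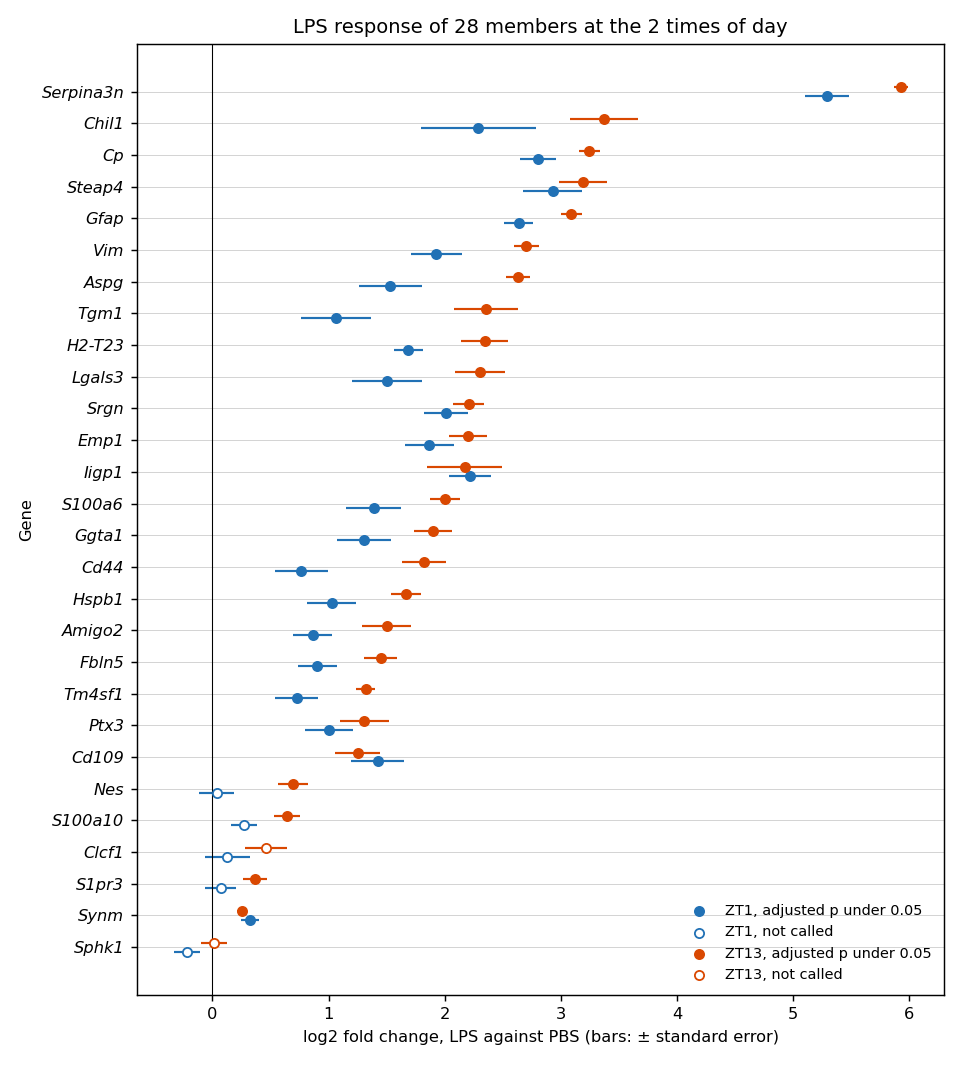
Log2 fold change between LPS and PBS mice for the 28 tested genes, at ZT1 in blue and at ZT13 in orange, with bars for the standard error and filled points for an adjusted p under 0.05. Serpina3n stood apart at 5.29 and 5.93, and the ZT13 estimate was the larger for 25 genes.

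By published class, the members that passed the filter in PBS mice too are given apart from the 6 that passed through LPS mice alone and had to be high there, all of which were called. Of the former, 7 of 8 pan-reactive genes were called at ZT1 and 8 of 8 at ZT13, all higher. All 5 neuroinflammation-type genes were called at both times, 2 and then 3 of the 5 injury-type genes, and 3 and then 4 of the 4 further genes, against the 11.1% and 19.2% of all genes called higher. Over these genes the median log2 fold change was 1.73 and 2.67 for the pan-reactive, 1.31 and 1.90 for the neuroinflammation-type, 0.27 and 0.64 for the injury-type, and 0.86 and 1.35 for the further genes, against 0.04 and 0.05 over all genes. The summed level of the pan-reactive genes was 178 to 189.5 CPM in ZT1 PBS and 922 to 1604 CPM in ZT1 LPS mice, and 179 to 181 and 1363 to 1840 CPM at ZT13, most of it from *Gfap*. The summed injury-type genes stood at 21.1 to 24.7 and 31.3 to 43.0 CPM at ZT1, and at 20.04 to 21.7 and 39.9 to 50.7 CPM at ZT13. The difference between classes was not tested.

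**Figure D4:**
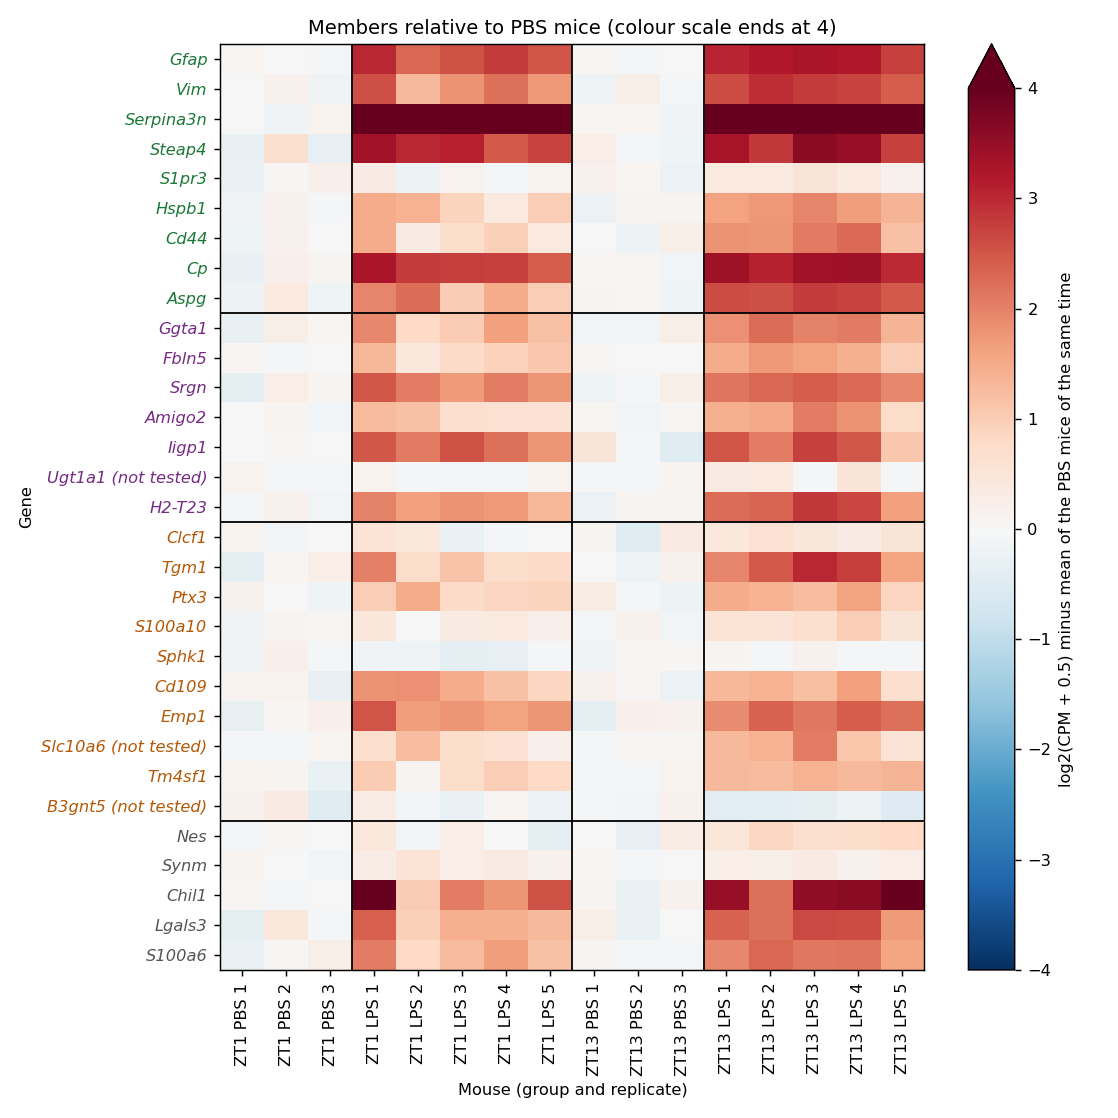
Level of all 31 genes in each of the 16 mice as log2(CPM + 0.5) minus the mean of the PBS mice of the same TOD, with genes coloured and grouped as pan-reactive (green), neuroinflammation-type (purple), injury-type (orange) and further (grey). Serpina3n exceeded the top of the colour scale at 4 in all 10 LPS mice, and ZT1 LPS replicate 1 was darker than the other morning LPS mice for most genes.

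The genes that surround these members in the pathway moved with them. All 12 other genes of the published reactive astrocyte lists were called higher in LPS mice at both times, against 11.1% and 19.2% of all genes. Among them *Lcn2*, *Timp1*, *Cxcl10* and *C3* were below 1 CPM in every PBS mouse and were tested through LPS mice alone. *Lcn2*, the iron-siderophore carrier lipocalin 2, rose from a mean of 0.129 to 194 CPM at ZT1 and from 0.131 to 349 CPM at ZT13, on the log2 scale by 8.19 and 9.10. Complement *C3* rose from 0.455 to 37.7 and from 0.180 to 65.7 CPM, and the protease inhibitor *Timp1* from 0.582 to 13.02 and from 0.530 to 24.4 CPM. *Ptgs2*, the cyclooxygenase of prostaglandin synthesis, changed least (log2 0.65 and 0.79).

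Of 17 genes for the signals known to set off reactivity, 1 (*Osmr*) is also among those 12, and 16 were tested. Of these, 12 were called at ZT1 and 16 at ZT13, all higher, against 11.1% and 19.2% of all genes called higher. The oncostatin M receptor *Osmr* rose by 1.89 and 2.25 on the log2 scale, the transcription factor *Stat3* by 0.74 and 1.19, its feedback inhibitor *Socs3* by 1.53 and 2.27, and *Cebpd* by 2.11 and 1.74. The NF-kappa B subunit *Rela* gave 0.17 (adjusted p = 0.0999) at ZT1 and 0.30 (adjusted p = 0.0030) at ZT13. The microglial inducer *C1qa* rose by 1.94 and 2.12, and *Tnf* gave 0.68 (adjusted p = 0.056) and 1.64 (adjusted p = 0.00010), while *Il1a* was too low to test. Of the 14 homeostatic astrocyte markers 6 were called higher at ZT1, against 11.1% of all genes, and 6 at ZT13, against 19.2%. At ZT13 1 was called lower, against 9.4% of all genes. Their median log2 fold changes were 0.10 and 0.15, against 0.04 and 0.05 over all genes. *Aqp4* rose by 0.42 and 0.73 and *Aldh1l1* by 0.56 and 0.57, whereas *Slc1a2* gave -0.04 and -0.13.

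The LPS-treated mice of the 2 times were then compared directly, to ask whether the reactive genes stood at different levels after evening and after morning LPS. No member was called, where 4 of all genes (0.0212%) were, 0.0106% higher and 0.0106% lower. Without adjustment 18 members had p under 0.05, but the share of all genes under that p was not computed, so this count cannot be weighed. The estimate was positive, that is higher at ZT13, for 26 of 28 members, with a median log2 difference of 0.40 against 0.01 over all genes, of which 55.6% were positive. Members vary together between mice, so these 26 are not 26 independent observations. *Tm4sf1* was the 1 member for which all 5 evening mice lay above all 5 morning mice, against 1.55% of all genes, and no tested member was lower in all 5, against 0.408%.

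The largest estimates were those of *Chi3l1* (log2 1.00, 95% confidence interval 0.01 to 1.99, adjusted p = 0.46), *Tgm1* (0.99, 0.35 to 1.63, adjusted p = 0.23) and *Lgals3* (0.82, 0.29 to 1.35, adjusted p = 0.23). *Serpina3n* had the smallest adjusted p, 0.099, with a log2 difference of 0.72 (0.40 to 1.04). *Vim* gave 0.71 (0.32 to 1.11, adjusted p = 0.17) and *Gfap* 0.48 (0.22 to 0.75, adjusted p = 0.17). At the other end, *Cd109* gave 0.02 (-0.43 to 0.47), *Synm* 0.09 (-0.04 to 0.22), *Sphk1* -0.15 (-0.35 to 0.06) and *Iigp1* -0.16 (-0.73 to 0.42). These intervals leave room for a log2 difference of 0.40 in *Cd109* and *Iigp1* and not in *Synm* and *Sphk1*.

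One morning mouse bore on this comparison more than any other. ZT1 LPS replicate 1 was the highest of the 5 morning LPS mice for 22 of the 28 members and the lowest for 0, and it reached at least the lowest evening LPS mouse for 25. It had 46.1 CPM of summed neutrophil and monocyte markers, where the other 4 morning LPS mice had 11.1 to 38.3, and its microglial sum of 317 CPM lay within theirs. Its choroid plexus markers summed to 850 CPM, against 11.7 to 553 in those 4 mice. Its fibroblast and meninges markers summed to 283 CPM, against 231 to 236. The part of such tissue in the members' differences was not tested. Without this mouse the 4 remaining morning mice lay below all 5 evening mice for 9 members, namely *Cp*, *Emp1*, *Lgals3*, *S100a10*, *Serpina3n*, *Srgn*, *Tgm1*, *Tm4sf1* and *Vim*, against 4.26% of all genes. The fit without it called 9 members higher at ZT13, and 345 genes (1.83%) in all. They were *Serpina3n* (log2 0.89, adjusted p = 0.00060), *Emp1* (0.81, 0.010), *Vim* (0.87, 0.016), *Gfap* (0.58, 0.022), *Lgals3* (1.04, 0.022), *Cp* (0.49, 0.027), *S100a6* (0.80, 0.031), *Tgm1* (1.22, 0.032) and *Tm4sf1* (0.63, 0.038). No member was called when any one of the other 9 LPS mice was left out. The comparison of all 10 mice is the one given as the result.

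Other fits of the same mice gave calls. With 1 fit of all 16 mice, which share an estimate of spread, *Gfap* (adjusted p = 0.047) and *Serpina3n* (0.031) were called higher at ZT13, where 0.647% of all genes were called. With sample quality weights 7 members were called, *Gfap*, *Vim*, *Serpina3n*, *Aspg*, *Amigo2*, *Emp1* and *Tm4sf1*, and 1.19% of all genes. Evening replicate 5 was the lowest of its group for 21 of 28 members and also had the lowest neutrophil and monocyte sum of its group, 30.5 CPM, and evening replicate 3 was the highest for 14. The part of blood-derived cells in this spread was not tested.

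**Figure D5:**
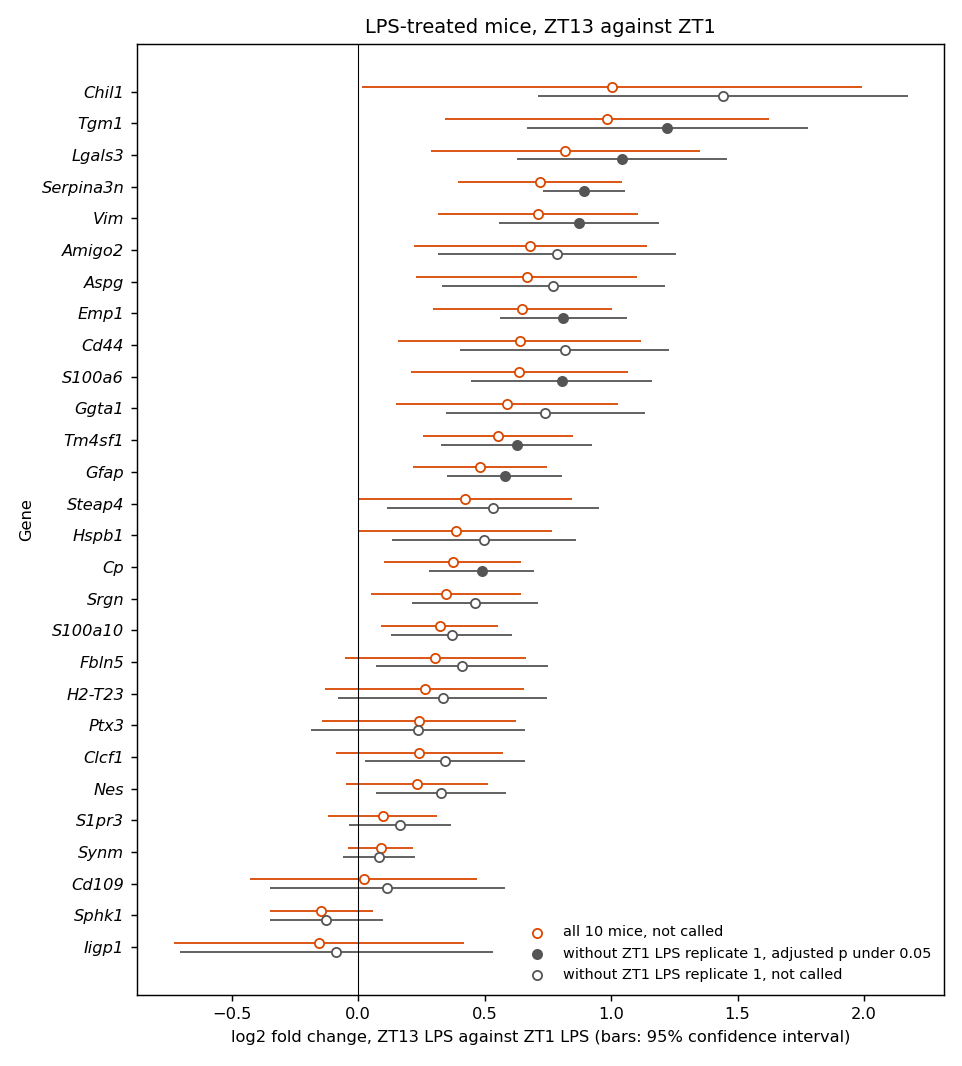
Log2 fold change between ZT13 LPS and ZT1 LPS mice for the 28 tested genes with 95% confidence intervals, in orange for all 10 mice and in grey without ZT1 LPS replicate 1, with filled points for an adjusted p under 0.05. No gene was called with all 10 mice, and 9 were called without that mouse.

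PBS mice showed little of this. Between ZT13 PBS and ZT1 PBS no member was called (0.52% of all genes were, 0.302% higher and 0.217% lower). An unadjusted p under 0.05 was found for 6 members, and the share of all genes under it was not computed. The median log2 difference was -0.06 with 10 of 28 estimates positive, against -0.00039 and 49.8% positive over all genes. *Gfap* differed by 0.03 (95% confidence interval -0.08 to 0.13), *Vim* by -0.06 (-0.31 to 0.18) and *Serpina3n* by 0.08 (-0.20 to 0.36). The most negative estimates were those of *Aspg* (-0.43, adjusted p = 0.36), *Nes* (-0.42, 0.26), *Cd44* (-0.42, 0.27), *H2-T23* (-0.39, 0.21) and *Sphk1* (-0.38, 0.26). All 3 evening PBS mice lay below all 3 morning ones for 6 members, *Cd44*, *Aspg*, *Fbln5*, *H2-T23*, *Sphk1* and *Nes*, and above them for 0, against 9.21% and 9.52% of all genes. None of these estimates passed the adjustment.

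The TOD by LPS interaction, the response at ZT13 minus the response at ZT1 over all 16 mice, asked whether LPS moved a gene by a different amount in the evening. No member was called (0.159% of all genes were, 0.122% positive and 0.0371% negative). An unadjusted p under 0.05 was found for 13 members, and here too the share of all genes was not computed. The estimate was positive for 25 members with a median of 0.57 on the log2 scale, against 54.0% positive and a median of 0.01 over all genes. The interaction shares its mice with the comparisons above and is no independent count. The largest were *Tgm1* (1.29, SE 0.44, adjusted p = 0.34), *Aspg* (1.10, SE 0.32, adjusted p = 0.23), *Chi3l1* (1.08, SE 0.65, adjusted p = 0.66) and *Cd44* (1.06, SE 0.33, adjusted p = 0.28). *Gfap* gave 0.46 (SE 0.18, adjusted p = 0.40), *Serpina3n* 0.63 (SE 0.22, adjusted p = 0.34) and *Vim* 0.77 (SE 0.27, adjusted p = 0.35). *Nes*, at 0.66 (SE 0.21, adjusted p = 0.30), was called at ZT13 and not at ZT1, and so were *S100a10* (0.37, SE 0.17, adjusted p = 0.51) and *S1pr3* (0.30, SE 0.18, adjusted p = 0.66), so a difference of response was not shown for any of them. *Iigp1* (-0.05), *Synm* (-0.07) and *Cd109* (-0.17) were the 3 negative estimates. Without ZT1 LPS replicate 1 the interaction of *Serpina3n* was called (0.81, adjusted p = 0.0070), and with sample quality weights that of *Aspg* (1.28, adjusted p = 0.030). Of the 8 endothelial markers, *Pecam1*, *Cdh5*, *Cldn5* and *Flt1* were called in the interaction, all 4 positive, and 0 of the 14 homeostatic astrocyte markers. Between ZT13 PBS and ZT1 PBS mice 2 of the 8 endothelial markers were called lower, against 0.217% of all genes, with a median log2 difference of -0.34. Between the LPS groups 0 were called, against 0.0212% of all genes, with a median of 0.17. The PBS difference enters the endothelial interaction, and its part there was not tested.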

How the data were processed

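Total RNA of 16 cortices, extracted with a PureLink kit, was depleted of ribosomal RNA with KAPA RiboErase. The submitters' processing notes name bcl2fastq, DRAGEN 4.0.3-8 and GRCm38, and the annotation used for counting is not given in the sources used here. The authors deposited 1 table of CPM that sums to 1000000 in each sample. It holds 55774 lines, of which 287 repeat a gene with identical values and were dropped. Between 80.5% and 82.0% of values up to 20 reads were whole reads within 0.001, so counts could not be recovered and no count test was run. Coordinates and exon lengths came from GENCODE M21, which holds 55141 of the 55487 identifiers.

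Genes at 1 CPM or more in at least 3 mice (18859) were tested on log2(CPM + 0.5). The tool was limma 3.58.1 (R 4.3.3), run with its intensity trend and a Benjamini-Hochberg adjustment over all tested genes. A fold change on this scale understates the change of low genes. Each pairwise comparison was fitted on its own 2 groups, and the interaction on all 16 mice. Standard errors are those of the fit, ± gives the SD between mice, and p-values measure the spread between these mice. The fits were checked on simulated data. Alternatives were other pseudocounts, filters, scalings and weights, no trend, 1 fit of all mice, a replicate block, leaving out each mouse, and groups read from the treatment field. All 31 members are named, and the members, gene lists and motifs were chosen with earlier results of these data known. Python 3.11.15 served for the tables (numpy 2.4.6, pandas 2.3.3) and the plots (matplotlib 3.10.9).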

Additional observations from a re-analysis of the deposited data

Results flagged for a closer look

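Within the groups of 5 LPS mice, 62 sets of values were examined for a mouse whose gap to its neighbour took up more than 0.71 of the group's range, and chance flags about 1 group in 20. This picked out 6. Of these, 4 came from ZT1 LPS replicate 1, which was the highest morning LPS mouse for *Chi3l1* at 69.0 CPM, for *Emp1* at 5.36 CPM, for *Lgals3* at 3.22 CPM and for *Tgm1* at 2.33 CPM. ZT1 LPS replicate 2 was the highest for *Ptx3* at 1.34 CPM. ZT13 LPS replicate 4 was the highest for *S100a10* at 15.7 CPM. Without ZT1 LPS replicate 1 the log2 difference between evening and morning LPS mice was 1.44 for *Chi3l1*, 0.81 for *Emp1*, 1.04 for *Lgals3* and 1.22 for *Tgm1*.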

How the results depend on the processing

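The tests rest on 3 PBS and 5 LPS mice at each time, and a member below 1 CPM could not be tested. Over the single-member estimates under the alternatives other than the treatment field, 2629 of 2691 kept their direction or stayed uncalled on the same side of the threshold, 38 calls were lost, 24 were gained and none changed sign while called. With all genes of any CPM tested, the members called at ZT1 fell from 23 to 12, with 38565 genes in place of 18859 in the adjustment. With treatment taken from the treatment field, 0 members were called at ZT1 and at ZT13, and 3 and 0 of 28 estimates were positive. Leaving out each mouse in turn gave 19 to 24 members at ZT1 and 26 at ZT13.

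Between the LPS mice, 2 members were called with 1 fit of all 16 samples, 7 with sample quality weights and 0 to 9 when 1 mouse was left out, with 9 reached without ZT1 LPS replicate 1. In the interaction 1 member was called with sample quality weights and 0 to 1 with 1 mouse left out. Replicate numbers do not pair the mice, since residuals of same-numbered mice correlated at -0.20 to 0.33 over 20 pairs. A replicate block gave 21 members at ZT1, without *Cd44* (adjusted p = 0.057) and *Tm4sf1* (0.066), 26 at ZT13 and 0 in the other comparisons. Quantile normalization gave 21 members at ZT1, of which *Sphk1* was lower, and 25 at ZT13, and it moved the median of all genes at ZT13 from 0.05 to -0.06, so that the median member stood 1.76 above 0 on that scale. The cause of these shifts was not tested.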
